A study of Mus musculus with 34 samples.

Results

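The MHC class II genes and Ciita were examined for the peaks of chromatin proteins and histone marks called at them in mouse dendritic cells with and without the DNA-binding protein CTCF. The 10 genes were chosen by name: H2-Aa, H2-Ab1 and H2-Eb1, H2-DMa, H2-DMb1, H2-DMb2, H2-Oa and H2-Ob, Cd74 and Ciita. They were 10 of the 21938 protein-coding genes in the annotation used (GENCODE vM21, build mm10), and the rule that names them uses no measured value. Bone marrow-derived dendritic cells (BMDCs) were grown for 6 days with GM-CSF from C57BL/6 mice 8 weeks old and studied by chromatin immunoprecipitation and sequencing. Both genotypes carried CreER, a tamoxifen-dependent Cre recombinase placed at the Rosa26 locus, and both received 4-OH tamoxifen on the first day of culture, so the controls shared the recombinase and the drug. Cells with the genotype CreER are called WT, and cells of the genotype CreER;CTCFfl/fl, in which the recombinase removes a floxed stretch of Ctcf, are called KO. WTLPS and KOLPS are the same cells after 3 h with lipopolysaccharide (LPS), a bacterial cell wall component, at 100 ng/ml. CTCF, SMC1 (a subunit of cohesin), p65 (a subunit of NF-κB) and the marks H3K4me3, H3K27ac, H3K4me1 and H3K27me3 were profiled in all 4 conditions. STAT5 was profiled in WT and KO only, after GM-CSF had been added back for 15 min. There was 1 peak list for each of these 30 combinations, so no difference below has a replicate check, and no p-value is given for one.

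MHC class II molecules present peptides from ingested proteins to CD4+ T cells, and dendritic cells are their main users at the start of a T cell response. H2-Aa and H2-Ab1 encode the chains of I-A, and H2-Eb1 encodes the beta chain of I-E. Cd74, the invariant chain, escorts new class II molecules to endosomes, H2-DMa with H2-DMb1 or H2-DMb2 forms the peptide exchange factor DM, and H2-Oa with H2-Ob forms DO, which restrains DM. Ciita, the class II transactivator, does not bind DNA itself and works through factors sitting on promoter elements called the X and Y boxes. CTCF and cohesin are known for holding the bases of chromatin loops, p65 is an effector of LPS signalling, and STAT5 is activated by GM-CSF. H3K4me3 marks active promoters, H3K27ac active promoters and enhancers, H3K4me1 enhancers, and H3K27me3 genes silenced by Polycomb.

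The 8 class II chain genes lay together on chromosome 17. In map order they were H2-Oa at chr17:34092340-34095234, H2-DMa at chr17:34119541-34139101, H2-DMb2 at chr17:34143307-34151555, H2-DMb1 at chr17:34153072-34160230, H2-Ob at chr17:34238903-34254414, H2-Ab1 at chr17:34257689-34269419, H2-Aa at chr17:34282744-34287823 and H2-Eb1 at chr17:34305867-34316674. H2-Aa was on the minus strand and the others were on the plus strand. Ciita was at chr16:10480059-10528418 on the plus strand. Peaks were counted in the 226.771 kb of the chromosome 17 cluster, from the promoter of H2-Oa to the end of H2-Eb1, and in Ciita and Cd74 with 50 kb on either side. These stretches are called the 3 windows, and a promoter reaches 2.5 kb each way from where the longest transcript starts.

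Of the 10 genes, 7 had a promoter stretch in the RefSeq table used (build GRCm38.p6, 250 bases before to 50 after the start). The Y box was searched as TGATTGG and the end of the X box as GNAAC, on both strands. TGATTGG was in 6 of the 7 stretches and in 7.82% of the 32851 stretches of all genes. GNAAC followed after 10 to 40 bases by TGATTGG was in 5 of the 7, those of H2-Aa, H2-Eb1, H2-DMb1, H2-Oa and H2-Ob, and in 0.828% of all stretches. The 6 stretches are shown because they are the letters these genes share ahead of their starts, with the matched bases in capitals.
H2-Aa, chr17:34287857-34287916, minus strand: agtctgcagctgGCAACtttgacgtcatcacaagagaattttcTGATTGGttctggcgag
H2-Eb1, chr17:34305764-34305822, plus strand: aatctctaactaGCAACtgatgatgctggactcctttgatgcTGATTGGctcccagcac
H2-DMb1, chr17:34153085-34153144, plus strand: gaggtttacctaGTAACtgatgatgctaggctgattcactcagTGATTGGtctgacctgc
H2-DMb2, chr17:34145115-34145173, plus strand: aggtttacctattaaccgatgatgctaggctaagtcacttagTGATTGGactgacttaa
H2-Oa, chr17:34092291-34092350, plus strand: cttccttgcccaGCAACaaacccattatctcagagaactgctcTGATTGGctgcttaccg
H2-Ob, chr17:34238806-34238862, plus strand: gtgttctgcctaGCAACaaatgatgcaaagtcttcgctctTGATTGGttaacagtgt

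Between GNAAC and TGATTGG lay 26 bases in H2-Aa, H2-DMb1 and H2-Oa, 25 in H2-Eb1 and 23 in H2-Ob. H2-DMb2 held TGATTGG with no GNAAC at that distance, and the H2-DMa stretch held GNAAC without TGATTGG. A match is a run of letters and not evidence that a factor was bound.

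The lists differed in size and depth. They held from 504 peaks (p65, KO) to 96475 peaks (H3K27me3, WT). In the order WT, WTLPS, KO and KOLPS, CTCF had 60537, 54020, 20151 and 11576 peaks, and SMC1 had 63638, 57354, 29965 and 17241. The usual number of background fragments over a position, recovered from the fold and p columns, was 3.74, 3.53, 2.95 and 2.82 for CTCF and 5.40, 5.76, 5.34 and 4.49 for SMC1 in the same order. For p65 such numbers were 0.705 to 0.855. Fold enrichment is the pileup at a peak's highest point over its local background, with 1 added to both. The 95% intervals on the folds are Poisson intervals that cover counting error only. Of 8 dendritic cell marker genes, 7 had an H3K4me3 peak at the promoter in each condition, the exception being Cd209a. Macrophage or monocyte markers had one at 6 of 6, B cell markers at 2 of 6 (Pax5 and Ebf1), T cell markers at 1 of 5 (Lck) and other markers at 0 of 4.

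All 10 genes carried the marks of active promoters in every condition. H3K4me3 peaks were at 10 of 10 promoters in WT, WTLPS, KO and KOLPS, against 56.7% of all protein-coding promoters in WT. H3K27ac peaks were also at 10 of 10 in each condition, against 44.1% of all promoters, and so were H3K4me1 peaks, against 57.1%. The H3K4me1 peaks were weak in p, and at a stricter threshold 1 to 3 of the 10 promoters still had one. H3K27me3 was at 0 of 10 promoters in each condition (upper limit of the Wilson 95% interval 27.8%), against 27.1% of all promoters. The chart of promoter coverage shows a value for the 3 active marks at every gene and H3K27me3 blank.

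**Figure D1:**
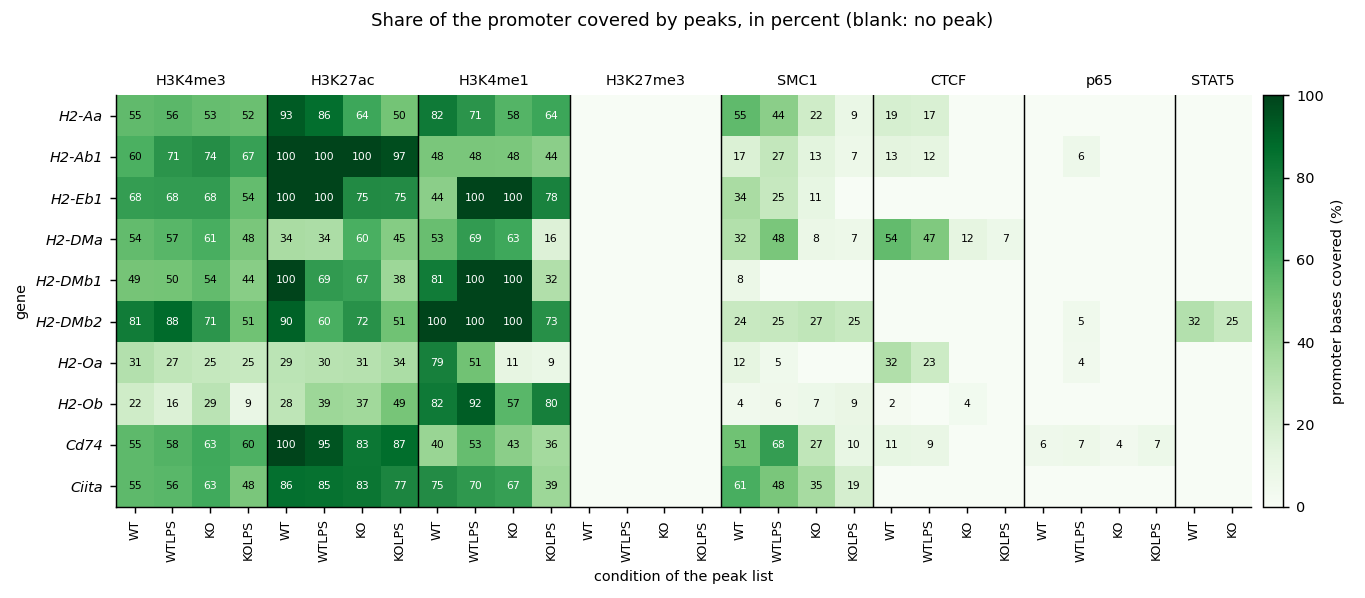
Percent of the 5001 bases of each gene's promoter covered by peaks (colour and printed value), by gene (vertical axis) and by antibody and condition (horizontal axis), with 1 list for each column. The 3 active marks have a value at all 10 genes, H3K27me3 has one at none, and CTCF is left at H2-DMa and H2-Ob in KO and at H2-DMa in KOLPS.

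The strongest H3K4me3 folds of the 10 promoters were at Cd74 and H2-Ab1 in each condition. At H2-Ab1 the strongest promoter peak had folds of 29.9, 35.7, 45.4 and 33.0, ordered as WT, WTLPS, KO and KOLPS. At Cd74 the folds were 30.03, 30.2, 39.1 and 24.0, and at H2-Aa 20.6, 23.2, 34.5 and 15.5. These 3 genes were highest in KO, as were the genes for DO, H2-Oa and H2-Ob. At H2-Eb1 the folds were 21.1, 26.9, 20.9 and 15.1 in the same order. The genes for DM stood at 22.4, 23.9, 22.7 and 18.3 (H2-DMa), 21.5, 17.7, 14.5 and 8.79 (H2-DMb1) and 12.1, 13.5, 9.995 and 7.99 (H2-DMb2). The genes for DO had folds of 12.1, 9.10, 18.6 and 7.05 at H2-Oa and 4.93, 6.03, 7.27 and 5.64 at H2-Ob. H2-Ob had the lowest fold of the 10 in all 4 conditions.

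H3K27ac spread over more of these promoters than of others. In WT its peaks covered a median of 91.6% of the promoter bases of the 10 genes (28.0% at H2-Ob to 100%), against a median of 29.1% over the 9682 promoters with a peak. In WTLPS the medians were 76.9% and 27.2%, in KO 69.5% and 23.3%, and in KOLPS 50.3% and 18.3%. Coverage was thus lower in each KO list than in the WT list of the same treatment, at these genes and over all genes. It was also lower in WTLPS than in WT. The H3K27ac background was 1.17 fragments in WT and 0.748 in KO, and the part of depth in this coverage was not tested. H3K4me3 covered 54.8% in WT and 61.7% in KO, close to the 58.0% and 60.1% of all promoters with a peak. H3K4me1 covered 77.0% and 60.5% against 37.8% and 35.3%.

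Over the 3 windows together H3K27ac was cut into more and shorter peaks in the KO lists. WT had 118 peaks over 173.8 kb and WTLPS 122 over 178.7 kb, while KO had 170 over 123.5 kb and KOLPS 187 over 118.1 kb. Peaks of the whole lists were shorter too, with median widths of 369, 392, 271 and 242 bp, and the background was 1.17, 1.20, 0.748 and 0.801 fragments. The part of depth in these widths was not tested. The widest peak of the cluster lay over H2-Eb1 in WT (11.1 kb) and WTLPS (11.7 kb), and over H2-DMa in KO (6.02 kb) and KOLPS (4.65 kb), where that gene's annotation overlaps Brd2. At Cd74 the widest peak measured 6.20, 5.94, 3.50 and 4.70 kb.

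CTCF was called at fewer of these promoters in the KO lists, as it was over all promoters. Its peaks were at 6 of the 10 promoters in WT (Cd74, H2-Aa, H2-Ab1, H2-DMa, H2-Oa and H2-Ob), against 29.5% of all promoters. They were at 5 in WTLPS (27.2% of all), at 2 in KO (H2-DMa and H2-Ob, 19.1% of all) and at 1 in KOLPS (H2-DMa, 10.1% of all). In the 3 windows there were 45 CTCF peaks in WT, of which 30 had no overlapping KO peak, against 76.3% of the whole WT list. Of 46 peaks in WTLPS, 36 had none in KOLPS, against 82.5% of that list. The share kept was 33.3% in the windows (95% Wilson interval 21.4 to 47.9%) and 23.7% over the list without LPS, and 21.7% (12.3 to 35.6%) and 17.5% with LPS, so both list shares lay inside the intervals. LPS itself left most WT peaks in place: 4 of the 45 had no peak in WTLPS, against 20.6% of the list.

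Peak strength in WT went with which CTCF sites were still called. All 12 window peaks among the strongest 20% of the WT list were also called in KO, where the list as a whole kept 83.5% of that class. Of the 33 window peaks in the weakest 80%, 3 were called in KO, where the list kept 8.81%. With LPS, 7 of 10 and 3 of 36 were kept, against 65.3% and 5.53% of the list. The median WT fold was 21.1 for kept sites and 6.93 for the others. Among the kept sites the KO fold was a median of 0.366 times the WT fold (0.200 to 0.596, 15 sites), against 0.3499 over the 14371 kept peaks of the list.

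**Figure D2:**
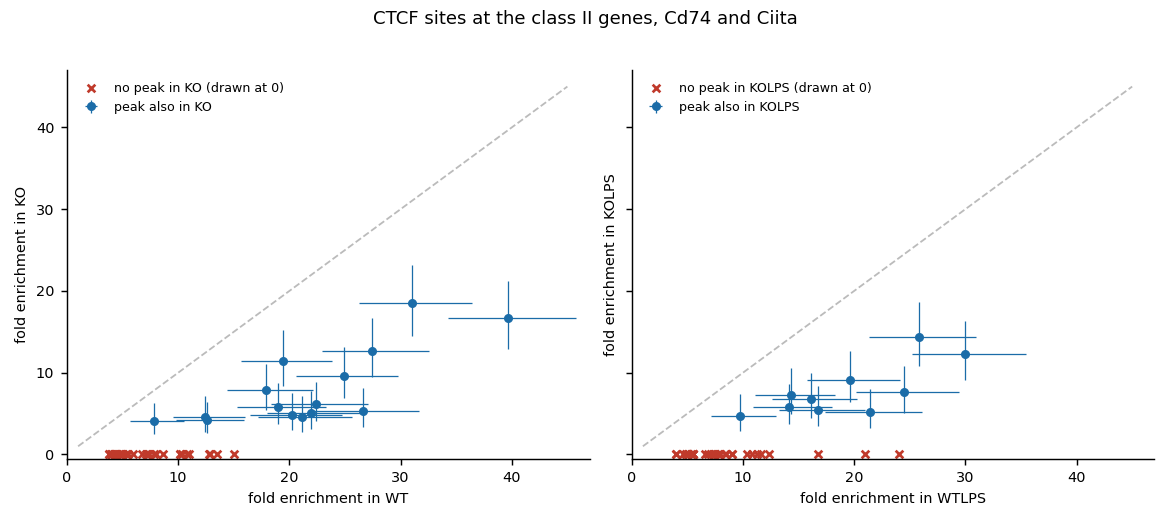
CTCF fold enrichment at sites of the 3 windows, WT (horizontal) against KO (vertical) on the left and WTLPS against KOLPS on the right, with Poisson 95% intervals, a dashed line of equal values, and crosses at 0 for sites without a KO peak. Every site called in both lists lies below the line, and on the left the sites without a KO peak have WT folds of 15.0 or less.

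The CTCF site at the start of H2-DMa was the strongest of the cluster in WT. Its summit was 232 bp before the start of the longest transcript, in an exon of the gene's annotation, which begins further upstream. The folds were 39.7 (34.2 to 45.8) for WT and 30 (25.2 to 35.5) for WTLPS. KO had 16.7 (13.0 to 21.2) and KOLPS 12.3 (9.08 to 16.3). The intervals of the WT and KO lists did not overlap, with or without LPS. It stayed among the stronger peaks of each list, above 99.3%, 98.2%, 97.4% and 95.9% of its peaks. Other sites of the cluster called in all 4 lists had WT and KO folds of 31.0 (26.2 to 36.4) and 18.5 (14.5 to 23.2) between H2-DMb1 and Psmb9, and of 27.4 (22.9 to 32.6) and 12.7 (9.43 to 16.7) at 3686 bp before H2-Ob. The site between H2-Oa and Brd2 had folds of 19.0 (15.3 to 23.3) and 5.82 (3.74 to 8.69), and the site in an intron of H2-Eb1 12.5 (9.51 to 16.04) and 4.56 (2.76 to 7.14).

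The sites over the genes of I-A were called in WT and WTLPS only. The peak in an intron of H2-Ab1, with its summit 1019 bp after the start, had folds of 15.0 and 8.38. The peak over an exon of H2-Aa had 10.3 and 7.72, the peak over an exon of H2-DMb1 10.1 and 9.05, and the peak 1308 bp before H2-Oa 10.2 and 7.16. At H2-Ob the WT peak counted for the promoter reached it only with its edge, and the KO peak there was a separate one with a fold of 4.05. Of all 48 CTCF sites in the windows, 10 were called in all 4 lists, 26 in WT and WTLPS only, 5 in every list but KOLPS, and 2 in KO only.

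The CTCF core was searched as CCNNNAGNNGGC on both strands within 100 bases of each summit. It was found at 44.3% of 58765 WT peaks, at 4 of the 7 sites of chromosomes 16 and 17 called in all lists, and at 10 of the 21 called in WT and WTLPS only. Sites called in all lists are shown first, and sites with no KO peak after them, so that the cores can be read side by side, with the match in capitals.
H2-DMa start, in all 4 lists, chr17:34135410-34135439, plus strand: cccgaccttCCACCAGGGGGCggaggtctc
H2-Oa to Brd2, in all 4 lists, chr17:34101649-34101678, plus strand: aataaatccCCACCAGGGGGCgctcgcgtg
H2-DMb1 to Psmb9, in all 4 lists, chr17:34170947-34170976, plus strand: cacatttgtCCACTAGGTGGCgccaaagac
Before H2-Ob, in all 4 lists, chr17:34235161-34235190, minus strand: tttacatggCCACCAGATGGCaccagactc
H2-Ab1 intron, WT and WTLPS, chr17:34264216-34264245, minus strand: ggccctgacCCCCTAGGGGGCactcgttct
H2-Aa exon, WT and WTLPS, chr17:34286032-34286061, minus strand: aaaactgtaCCAGCAGGGGGCagcgtgcag
H2-Ob intron, WT and WTLPS, chr17:34251777-34251806, plus strand: ggacacacaCCAGCAGGTGGCcacagagaa

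How often the core began with the letters CCAC differed between these groups, a feature chosen after the cores were seen. All 4 cores of sites called in every list began with CCAC, as did 1 of the 10 at sites called in WT and WTLPS only and 0 of the 3 at sites missing from KOLPS alone. Over the whole WT list, CCAC began 41.2% of the 7428 cores at peaks with a KO peak and 11.6% of the 18580 at peaks without one. Peaks with a KO peak were also the stronger ones in WT, and the part of strength in this difference was not tested.

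Cohesin was called at these promoters more widely than CTCF. SMC1 peaks were at 10 of 10 promoters in WT, against 30.4% of all promoters, and the later counts were 9 (WTLPS), 8 (KO) and 7 (KOLPS), against 27.1%, 21.6% and 13.9%. Of the 88 SMC1 peaks in the windows in WT, 34 had no KO peak, against 65.5% of the list. Of 78 in WTLPS, 46 had none in KOLPS, against 76.7% of the list. The share kept was 61.4% (50.9 to 70.9%) without LPS and 41.03% (30.8 to 52.1%) with it, above the 34.5% and 23.3% of the lists. Between WT and WTLPS, 20 of the 88 peaks had no partner, against 25.5% of the list.

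Most SMC1 peaks of the windows were away from CTCF, and the share kept differed by the CTCF they overlapped. In the windows 52 of the 88 SMC1 peaks of WT overlapped no CTCF peak in WT, against 29357 of 63638 in the whole list. H3K27ac overlapped 49 of these 52, against 58.2% of such peaks in the list. Of the 52, 40 were kept in KO (76.9%, 63.9 to 86.3%), against 55.7% in the list. Where the CTCF peak was itself absent in KO, 5 of 21 SMC1 peaks were kept (23.8%, 10.6 to 45.1%), against 10.7% in the list, which lay inside the interval. Where the CTCF peak was in both genotypes, 9 of 15 were kept (interval 35.7 to 80.2%), against 24.9%.

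SMC1 at the start of H2-DMa differed between the genotypes, while before H2-DMb2 its folds were close. At H2-DMa, WT and WTLPS had SMC1 folds of 47.3 (42.1 to 52.9) and 40.2 (35.6 to 45.3), and KO and KOLPS of 7.73 (5.74 to 10.2) and 6.73 (4.77 to 9.25). The intervals of the genotypes did not overlap. The KO fold was 0.163 times the WT fold, the lowest ratio of the 54 kept SMC1 sites, whose median was 0.858 against 0.855 over the list. At 2110 bp before H2-DMb2, where no CTCF peak was called, the folds were 11.9 (9.37 to 14.8), 11.7 (9.26 to 14.5), 12.8 (10.2 to 15.9) and 11.3 (8.67 to 14.4), and all 4 intervals overlapped. Within H2-DMb1, at a CTCF site without a KO peak, SMC1 had 14.2, 12.6 and 4.58 in WT, WTLPS and KO and no peak in KOLPS. In the intron of H2-Eb1 it had 12.02, 12.3 and 3.79, again with none in KOLPS.

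**Figure D3:**
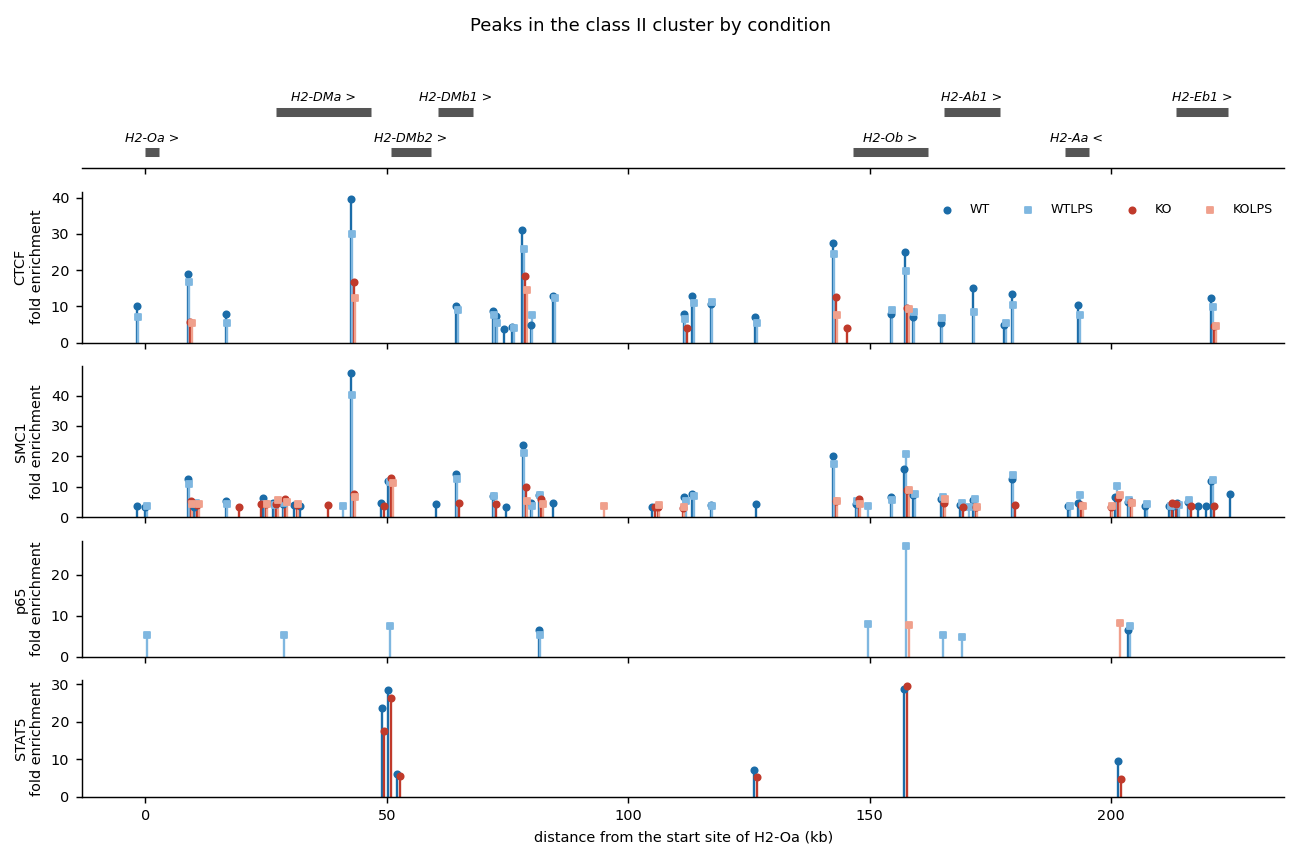
Fold enrichment of each peak in the chromosome 17 cluster (vertical axes) for CTCF, SMC1, p65 and STAT5 against distance from the start of H2-Oa in kb (horizontal axis), with gene bodies on top, 1 list per condition and KO marks shifted slightly to the right. The SMC1 values at H2-DMa separate by genotype (47.3 and 40.2 against 7.73 and 6.73), while those before H2-DMb2 lie together (11.3 to 12.8).

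STAT5 sites were mostly called in both genotypes. At promoters STAT5 had a peak at 1 of the 10 genes, H2-DMb2, in WT and in KO, against 3.96% of all promoters in WT. In the windows 2 of the 15 WT peaks had no KO peak, against 35.2% of the list, and both lay in or next to Tvp23a, a neighbour of Ciita. The share kept was 86.7% (62.1 to 96.3%), and the 64.8% of the list lay inside that interval. The STAT5 background was 1.33 fragments in WT and 1.70 in KO, so the KO list was the deeper one. Thinned to the lower coverage, the share kept was 84.0%. The KO fold of the 13 kept sites was a median of 0.736 times the WT fold (0.478 to 1.03), against 0.826 over the list.

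The 4 strongest STAT5 regions were at Ciita, Cd74, H2-Ob and H2-DMb2. Before H2-DMb2 the folds were 28.3 in WT (22.0 to 36.0) and 26.3 in KO (20.5 to 33.1) at 2111 bp from the start, and 23.6 (17.9 to 30.7) and 17.4 (12.8 to 23.1) at 3491 bp. In the intron of H2-Ob they were 28.8 (22.4 to 36.5) and 29.6 (23.5 to 36.8). The WT and KO intervals overlapped at these sites of H2-DMb2 and H2-Ob, while those of the Ciita site, given further on, did not. Another STAT5 site, called in WT and KO, had its summit at base 34145057 in an intron of H2-DMb2.

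The site before H2-DMb2 was also a p65 and an SMC1 site. The p65 summit was at base 34143158 of chromosome 17, the STAT5 summit at base 34143160 and the SMC1 summit at base 34143161. The p65 peak was called in WTLPS only, with a fold of 7.55 (4.27 to 12.5). The 124 bases around them are shown because 3 proteins peaked within 4 bases there, which are in capitals.
H2-DMb2 upstream, chr17:34143098-34143221, plus strand: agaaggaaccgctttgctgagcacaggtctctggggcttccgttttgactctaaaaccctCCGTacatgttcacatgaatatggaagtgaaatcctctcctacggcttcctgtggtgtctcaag

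These letters held 0 matches of TTCNNNGAA, searched for STAT5, of GGGNNNTTCC, searched for p65, and of CCNNNAGNNGGC. TTCNNNGAA was within 100 bases of the summit at 55.0% of 7957 WT STAT5 peaks, and GGGNNNTTCC at 17.9% of 5306 WTLPS p65 peaks. The STAT5 site in the H2-DMb2 intron had 1 match of TTCNNNGAA within that distance.

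p65 was called at the class II promoters mainly after LPS in WT. Its peaks were at 4 of 10 promoters in WTLPS (Cd74, H2-Ab1, H2-DMb2 and H2-Oa), against 2.86% of all promoters, and at Cd74 only in WT, KO and KOLPS. The p65 peaks in the windows numbered 4 and 16 without and with LPS in the WT cells, and 1 and 6 in the KO cells. Of the 16 WTLPS peaks, 12 had no WT peak, against 86.7% of the list, and 11 had no KOLPS peak, against 77.3%. The share kept in KOLPS was 31.3% (14.2 to 55.6%), and the 22.7% of the list lay inside that interval. Every one of the 16 overlapped an SMC1 peak of WTLPS, as did 88.0% of the list.

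The strongest p65 site after LPS was in an intron of H2-Ob. It had a fold of 26.9 in WTLPS (20.1 to 35.5) and 7.71 in KOLPS (4.36 to 12.8), and no peak in WT or KO. The intervals did not overlap, and the ratio of 0.286 was the lowest of the 5 sites kept, whose median was 0.841 against 0.711 over the list. The site ranked above 97.9% of WTLPS peaks and 47.1% of KOLPS peaks. CTCF at the same place had 24.9 (20.6 to 29.8), 19.6 (15.8 to 24.1), 9.62 (6.85 to 13.2) and 9.16 (6.42 to 12.7) in WT, WTLPS, KO and KOLPS. SMC1 had 15.8 (12.9 to 19.1), 20.8 (17.6 to 24.6), 8.84 (6.70 to 11.45) and 9.10 (6.78 to 11.97). CTCF, SMC1 and p65 were lower in the KO lists than in the WT lists there, with intervals apart, while the STAT5 intervals overlapped. H3K27ac was called there in all 4 conditions. The stretch is shown because all 4 proteins had a summit in it, with 11 bases around the STAT5, p65 and CTCF summits in capitals, in that order.
H2-Ob intron, chr17:34249903-34250107, plus strand: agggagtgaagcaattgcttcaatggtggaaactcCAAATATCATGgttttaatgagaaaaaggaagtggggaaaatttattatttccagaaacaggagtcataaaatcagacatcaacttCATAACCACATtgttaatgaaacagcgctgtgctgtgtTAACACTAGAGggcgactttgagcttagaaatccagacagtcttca

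The p65 summit lay 86 bp and the CTCF summit 124 bp after the STAT5 summit. These 205 bases held 0 matches of the 3 motifs as spelled above. Other p65 sites of the cluster were weaker, with WTLPS folds from 4.85 in an intron of H2-Ab1 to 8.01 over an exon of H2-Ob. A site 5976 bp before H2-Aa was called in KOLPS only, with a fold of 8.13 (4.78 to 13.1).

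**Figure D4:**
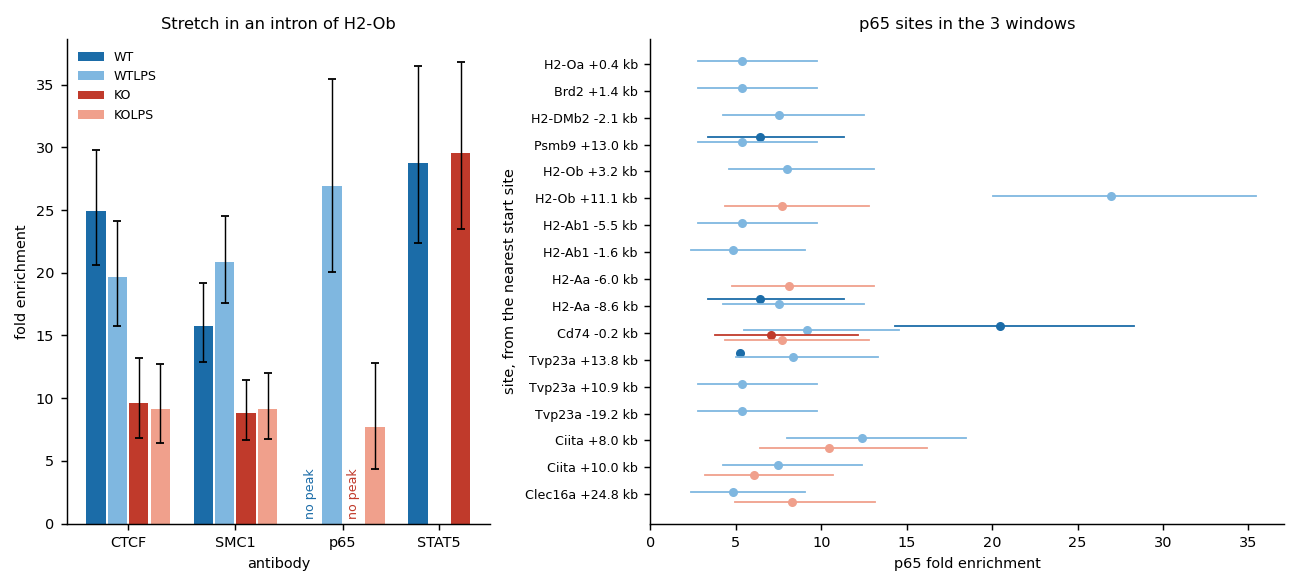
Left, fold enrichment (vertical axis) of CTCF, SMC1, p65 and STAT5 at the H2-Ob intron by condition, with Poisson 95% intervals. Right, p65 fold (horizontal axis) at each p65 site of the 3 windows, named by the nearest start and the distance from it, in the same colours, with 1 WT point for which no interval was recovered. p65 at the H2-Ob intron reached 26.9 in WTLPS against 7.71 in KOLPS, and at Cd74 it was highest in WT.

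Ciita had active marks in all conditions and lay among sites of p65 and STAT5 but had no CTCF peak at its promoter. GENCODE lists 8 transcript starts for it, from base 10480059 of chromosome 16 to 9.724 kb further. H3K4me3 at the first starts had folds of 6.18 and 6.10 without and with LPS in WT cells, and of 7.70 and 5.57 in KO cells. Around the last starts, from 9.687 kb on, the folds were 18.4, 13.0, 17.7 and 10.3 in the same order. Their summits lay 9.85, 9.85, 9.78 and 10.2 kb from the first start. The peak at the last starts had a higher fold than that at the first starts in each of the 4 conditions. In WT and KO that peak also reached over the starts at 8.119 and 8.22 kb. In WTLPS and KOLPS those starts had a separate peak, with folds of 6.28 and 4.23, the latter below the first starts. No transcript level was measured in these libraries.

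p65 and STAT5 sites lay in the introns after those starts. p65 had folds of 12.4 in WTLPS (7.97 to 18.5) and 10.46 in KOLPS (6.42 to 16.2) at base 10496250, and 7.48 (4.23 to 12.4) and 6.05 (3.19 to 10.7) at base 10498296, with no peak in WT or KO. The intervals of both genotypes overlapped at both sites, unlike at the H2-Ob intron. SMC1 there had folds of 10.3, 12.6, 7.10 and 8.92 at the first site and 4.09, 9.16, 4.28 and 5.64 at the second, in WT, WTLPS, KO and KOLPS, and no CTCF was called at either. The H3K27ac summit of that region lay 16.4 kb from the first start in WT and KO, with folds of 17.03 and 23.5, 16.6 kb in WTLPS with a fold of 25.5, and 17.8 kb in KOLPS with a fold of 12.8. STAT5 at base 10500724 had 30.9 in WT (24.2 to 38.9) and 14.8 in KO (10.6 to 20.1), whose intervals did not overlap. The motif matches nearest these summits are shown in capitals.
Ciita intron, p65, first site, chr16:10496186-10496225: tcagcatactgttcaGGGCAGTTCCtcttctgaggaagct
Ciita intron, p65, second site, chr16:10498243-10498282: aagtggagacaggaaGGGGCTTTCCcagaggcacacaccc
Ciita intron, STAT5, chr16:10500763-10500801: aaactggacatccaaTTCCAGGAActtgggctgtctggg

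GGGNNNTTCC was found at 2 of the 4 p65 sites of chromosomes 16 and 17 called in WTLPS and KOLPS, both of them in Ciita, and at 0 of the 8 called in WTLPS only. CTCF peaks of Ciita lay further downstream, in introns shared with Dexi. They had folds of 20.3 in WT (16.4 to 24.7), 16.8 in WTLPS (13.2 to 21.0) and 4.81 in KO (2.95 to 7.46) at base 10523097, and 12.6, 11.7 and 4.201 at base 10521359. No CTCF peak was called within Ciita in KOLPS. SMC1 at these places had 11.6 and 14.9, and 10.4 and 10.2, in WT and WTLPS, and no peak in KO or KOLPS.

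**Figure D5:**
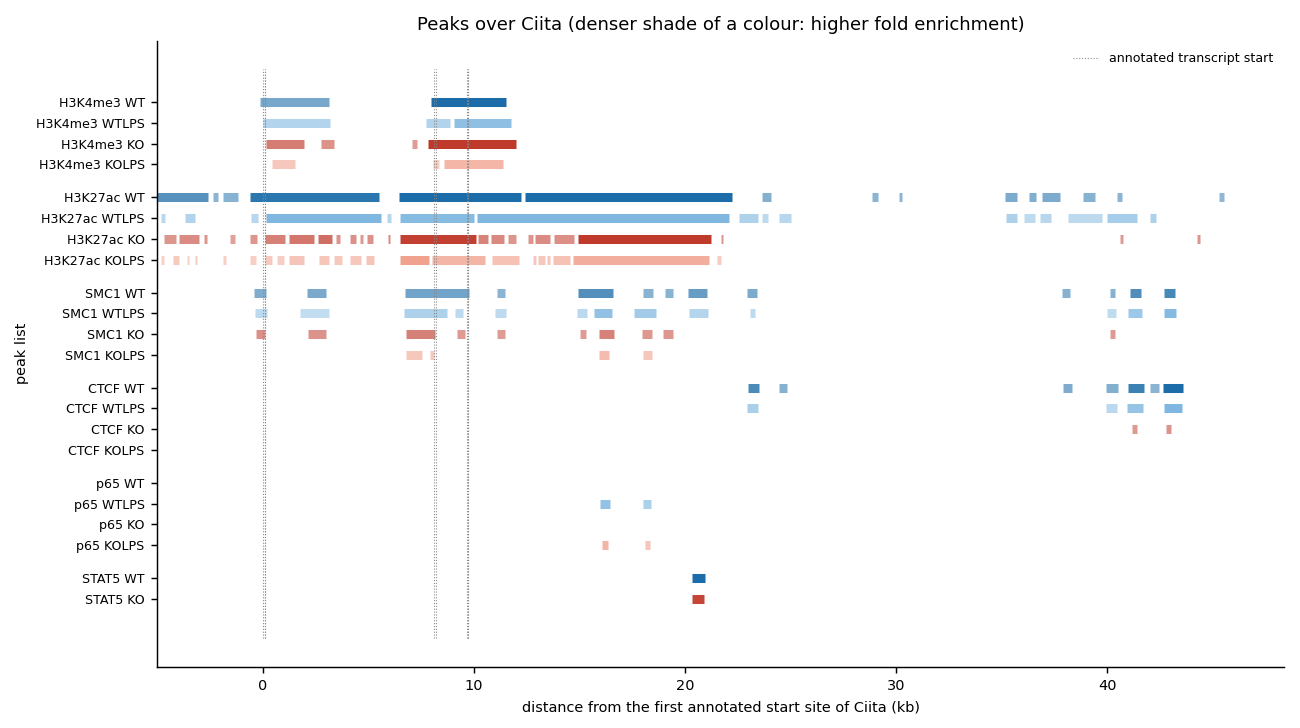
Peaks over Ciita as bars, by antibody and condition (vertical axis), against distance in kb from the first annotated start (horizontal axis), with dotted lines at the 8 starts and a denser shade for a higher fold. Both p65 sites appear in WTLPS and KOLPS, and the CTCF bars are absent in KOLPS.

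H3K27me3 was nearly absent from the windows. WT had 1 peak of 423 bases, WTLPS 2 of 1112 bases together, KO 2 of 1372 bases together and KOLPS none. The 2 peaks of KO lay in introns of Ciita, 3555 bp before and 20566 bp after the promoter's centre, with region folds of 2.76 and 3.06, and neither passed the threshold that the 4 lists had in common. The whole H3K27me3 lists held 96475, 65880, 95080 and 26960 peaks. A broad region's fold is an average over the region and is not on the scale of the summit folds above.

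Genes that act on class II expression were described beside the members. The regulators Rfx5, Rfxank, Rfxap, Nfya, Nfyb, Nfyc, Creb1, Spi1, Irf4, Irf8 and Irf1 each had H3K4me3 peaks at the promoter in each condition. Among these, CTCF was at Nfyb in WT and WTLPS, at Nfyc in KO and at none in KOLPS. p65 was at Creb1 and Irf1 in WTLPS and at Nfya in KOLPS, and STAT5 was at Irf8 in WT and at none of these genes in KO. Of 5 genes of class II processing, 4 had H3K4me3 in each condition and March1 did not. Ifi30, a lysosomal thiol reductase annotated here as a processed transcript, had a STAT5 peak in WT and KO. It also had a p65 peak in KOLPS, with a fold of 14.9, and none in WT, WTLPS or KO. Of 9 other genes inside or beside the cluster, 6 had H3K4me3 and 9 had H3K27ac in each condition. Over all protein-coding promoters the shares in WT were 56.7% and 44.1%.

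Cd74 was at chr18:60803848-60812652 on the plus strand. It was the one gene of the 10 with p65 at its promoter in every condition, the summit lying 161 bp before the start. The folds were 20.4 (14.3 to 28.3) for WT and 9.16 (5.47 to 14.5) for WTLPS, and 7.04 (3.81 to 12.1) for KO and 7.71 (4.36 to 12.8) for KOLPS. WT was the highest, and its interval overlapped that of WTLPS at the edge and lay above those of the KO lists. The CTCF peak at the promoter was weak, with a fold of 4.85 in WT and in WTLPS and no peak in KO or KOLPS. SMC1 at the promoter had 5.47, 5.62, 4.42 and 5.46.

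STAT5 at Cd74 had its strongest window peak of WT 4927 bp before the start, with folds of 35.2 in WT (28.1 to 43.7) and 21.8 in KO (16.7 to 28.1). The intervals met at 28.1. H3K27ac overlapped that site in WT and WTLPS and not in KO or KOLPS. In an intron 3632 bp after the start STAT5 had 23.6 (17.9 to 30.7) and 19.6 (14.7 to 25.6). CTCF flanked the gene at sites called in all 4 lists, among them one with folds of 19.4, 14.3, 11.4 and 7.33 between Rps14 and Cd74 and one with 21.1, 21.4, 4.56 and 5.23 between Cd74 and Tcof1. SMC1 at the latter had 13.4 and 18.03 in WT and WTLPS and no peak in KO or KOLPS.

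The genes with promoter coverage most like a member's were found by the mean difference, in percent of promoter bases, over the 30 lists. For Ciita these were Pla2g7 (4.200), Spop (4.73) and Evi2 (4.995), against a median of 28.1 over all protein-coding genes. For H2-Ab1 they were Etv3 (3.86), Hvcn1 (4.30) and Itga5 (4.36), against 27.5, and for Cd74 Rilpl2 (4.86), Cd52 (5.06) and Slc6a6 (5.33), against 28.6. These distances are a description and were not tested.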

How the data were processed

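Libraries were made by tagmentation of immunoprecipitated chromatin from 8 antibodies and 4 conditions, and 4 input samples had no list of their own. Per the labels' processing notes the authors used BWA 0.7.12, Picard 1.77, MACS2 2.1.2 and deepTools 3.1.3 on mm10, and the study's methods name other versions. The deposited lists give the fold enrichment of each peak as a ratio to local background, with 1 added to both, and the deposited −log10 p-values and q-values. CTCF, SMC1, p65, STAT5, H3K4me3 and H3K27ac lists give a summit, and H3K4me1 and H3K27me3 lists give region averages. The study names biological replicates, but the labels do not say whether a list is 1 replicate or a pool. The methods also name selection of cells with CD11c beads and mice of both sexes. The p65 lists are named as filtered for problem regions. The H3K4me1 peak names carry another antibody supplier than the labels.

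Peaks were placed on GENCODE vM21 with Python 3.11.15, pandas 2.3.3, NumPy 2.4.6 and SciPy 1.17.1, counting overlaps of 1 base or more. A peak was called kept where a peak of the second list overlapped it. Fragments were recovered from fold and p for 1543 of 1594 peaks (tolerance 0.01 in −log10 p), which gave the Poisson intervals. Overlapping peaks of the 4 conditions were joined into sites. The common threshold of an antibody is the highest of its lists' lowest −log10 p, and the stricter one is 2 times that. Motif shares over peaks leave out chromosome 18. Genes named were the 10 members, the gene lists (regulators, processing, neighbours and cell markers) and, for Ciita, H2-Ab1 and Cd74, the 3 genes of smallest mean difference in promoter coverage. One regulator is not reported here. The members, lists and motifs were chosen with earlier results of these data known, and the split of CTCF peaks by rank, the start of the CTCF core and the 2 introns and 1 upstream site printed at length were chosen after their values were seen. Scripts were tested on simulated peaks. With 1 list per condition there was no test between conditions.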

Additional observations from a re-analysis of the deposited data

Results flagged for a closer look

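3 peak counts changed with LPS in opposite directions in the genotypes, and none of these differences was tested, since each count comes from 1 list. CTCF peaks in the 3 windows numbered 45 in WT and 46 in WTLPS, and 18 in KO and 11 in KOLPS, a difference of -7 in KO, while the bases they covered were fewer with LPS in both genotypes (39820 and 34331 in WT and WTLPS, 10031 and 5312 in KO and KOLPS). H3K4me3 peaks numbered 29 and 33 in WT and WTLPS, and 36 and 25 in KO and KOLPS, a difference of -11 in KO. H3K27me3 peaks numbered 1 and 2 in WT and WTLPS, and 2 and 0 in KO and KOLPS, a difference of -2 in KO. The KOLPS list was the smallest of the 4 for each of these antibodies, with 11576, 20960 and 26960 peaks, and the part of list size in these counts was not tested. Bases covered changed in opposite directions for H3K4me3 and H3K27me3, and also for H3K4me1, SMC1 and H3K27ac. H3K4me1 covered 255313 and 261893 bases in WT and WTLPS, and 243972 and 155206 in KO and KOLPS. In the same order SMC1 covered 63589, 63914, 38823 and 21908, and H3K27ac 173818, 178677, 123477 and 118081. These were not tested either.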

How the results depend on the processing

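Over 41 results and 170 alternative values, 135 stayed within the limits set (1.5 times a count, or the interval of a share) and 35 moved. When 50% of a peak had to be overlapped, the shares kept were 13.3% (CTCF, WT to KO), 8.70% (CTCF, WTLPS to KOLPS), 45.5% (SMC1, WT to KO) and 29.5% (SMC1, WTLPS to KOLPS). At the stricter threshold SMC1 kept 42.0% and 27.9%. That threshold left 1 p65 peak in WT, 8 in WTLPS and 0 in KO. It left CTCF at 1 promoter in KO, SMC1 at 6, 4 and 4 promoters in WT, KO and KOLPS, and H3K4me1 at 1, 3, 1 and 1 promoters in WT, WTLPS, KO and KOLPS. With promoters of 1 kb either side, CTCF was at 3, 3 and 1 in WT, WTLPS and KO. With all transcript starts, CTCF was at 2 promoters in KOLPS and H3K27me3 at 1 in WTLPS. H3K27me3 covered 0 bases in WT and KO at the common threshold, and 0 in WT, WTLPS and KO at the stricter one. It covered 13290, 5474, 6977 and 756 bases in WT, WTLPS, KO and KOLPS with flanks of 100 kb. With the cluster extended by 50 kb either side it covered 1556, 2636 and 638 bases in WT, KO and KOLPS, and p65 had 2 peaks in KO. H3K27me3 bases, higher in WTLPS than in WT (1112 against 423), were thus lower with either wider window (1112 in WTLPS in the extended cluster), and with flanks of 100 kb KO was below WT. SMC1 promoters were 8 in WTLPS at the stricter threshold, above WT. Thinning to the lower coverage was run for 9 results, the shares kept and the p65 counts, and moved none of them. It was not run for the promoter counts or for the bases covered by H3K27ac and H3K27me3. No paired analysis was possible because each antibody and condition has 1 list and no test was made. The background of p65, and of H3K27ac in KO and KOLPS, was under 1 fragment, so an absent peak there means that none was detectable at this depth.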
